A study of Homo sapiens with 6 samples.

Results

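Of the 495 places where RNA was crosslinked to GAPDH in MOLM-13 cells kept in normal glucose, 324 (65.5%) shared no base with a place found in low glucose or in galactose. These 324 peaks were selected by position alone: a peak of the normal glucose list was kept when it overlapped, by at least 1 nt, no peak of the galactose list and no peak of the low glucose list. The MOLM-13 line derives from human acute myeloid leukaemia (AML), and GAPDH (glyceraldehyde-3-phosphate dehydrogenase) is an enzyme of glycolysis. The series held 6 samples of this line, 2 each in galactose conditions, in low glucose conditions and in normal glucose conditions, and the RNA bound to GAPDH was recovered with a polyclonal antibody and sequenced (crosslinking and immunoprecipitation, CLIP-seq). Per condition both samples had been merged by the authors into 1 list, which held 337 peaks for galactose, 484 for low glucose and 495 for normal glucose. The same rule left 111 peaks found in galactose alone and 262 found in low glucose alone, while the other 171 peaks of the normal glucose list overlapped a peak of another list.

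GAPDH carries no classical RNA-binding domain, but it has long been known to bind RNA, among it tRNA and messenger RNAs (mRNAs). In CLIP, ultraviolet light fixes a protein to the RNA it touches, and the RNA is then trimmed with a nuclease. Reverse transcription tends to stop at the base that still carries a piece of the protein, so that a crosslink is read as a position next to a read end. The nuclease used in this study, RNase T1, cuts RNA after a guanine (G).

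The lists hold positions and gene names, with no read numbers, so the depth behind a peak is unknown and no spread between samples can be given. Each p-value below compares lists of peaks and not conditions, since peaks are not replicates of a culture. Because absence from the other lists chose the 324 peaks, that absence was not tested. Of 12 genes that mark myeloid or leukaemic blood cells, such as CD33, MPO and FLT3, none held one of the 324 peaks. At most 2 of these genes had a peak in any of the lists, and a peak is no measure of a gene's expression.

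Most of the 324 peaks lay far from any peak of the other lists. The median distance to the nearest galactose or low glucose peak was 354334 nt, and 191 peaks were over 100000 nt away. Close by, 58 lay within 1000 nt, 32 of them nearest to a low glucose peak and 26 nearest to a galactose peak, and 11 lay within 50 nt. At the edge of the rule, a peak in the ribosomal protein gene RPS19 touched a low glucose peak with a gap of 0 nt, a peak in GNAI2, a G protein subunit, touched a galactose peak with a gap of 0 nt, and a peak in the ribosomal DNA transcript ENSG00000280441 lay 1 nt from a galactose peak. Just outside it, peaks in CCNI and PID1 overlapped a galactose peak by 10 and 13 nt. CCNI and PID1 were named after their overlaps were seen.

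**Figure D1:**
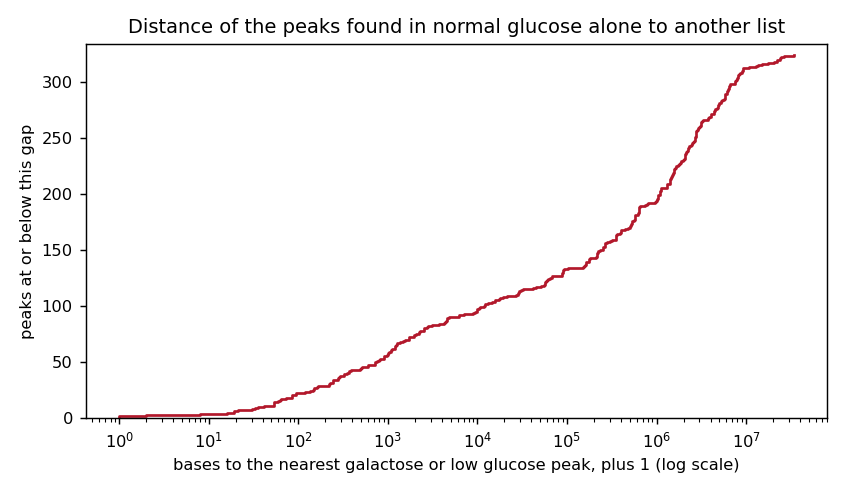
Number of the 324 peaks found in normal glucose alone (vertical axis) at or below a given number of bases to the nearest galactose or low glucose peak, plus 1 (horizontal axis, log scale). The curve reaches 11 peaks at a gap of 50 nt and 58 at 1000 nt, and the median gap is 354334 nt.

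At the level of genes the separation was smaller. The 324 peaks carried 377 genes, 321 of them with 1 peak and 56 with 2 or more. For 100 peaks (30.9%) an annotated gene had a peak elsewhere in another list: in low glucose for 37, in galactose for 7 and in both for 56. The genes of the remaining 224 peaks had no peak in either of the other lists.

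The sequences show what these places have in common. In the lines that follow, the RNA runs 5′ to 3′ as the genome build hg38 gives it, and the capitals mark the base before the middle of the peak and the middle itself. The first set holds single-site peaks, which are isolated crosslink sites that the authors had extended to 101 nt, in the coding sequence of glycolytic enzymes and of EEF2 and YBX1, which had 3 coding peaks each.
ALDOA exon 4 (chr16:30067466-30067506, plus strand): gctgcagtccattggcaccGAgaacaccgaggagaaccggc
ALDOA exon 6 (chr16:30068937-30068977, plus strand): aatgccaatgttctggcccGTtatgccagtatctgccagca
GPI exon 15 (chr19:34399214-34399254, plus strand): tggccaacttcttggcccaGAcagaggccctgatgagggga
GPI exon 18 (chr19:34399909-34399949, plus strand): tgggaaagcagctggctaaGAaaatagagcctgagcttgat
PGK1 exon 3 (chrX:78113852-78113892, plus strand): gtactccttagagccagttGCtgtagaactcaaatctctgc
PKM exon 8 (chr15:72206730-72206770, minus strand): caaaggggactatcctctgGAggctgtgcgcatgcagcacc
LDHA exon 3 (chr11:18399447-18399487, plus strand): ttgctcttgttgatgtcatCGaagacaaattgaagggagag
EEF2 exon 15 (chr19:3976615-3976655, minus strand): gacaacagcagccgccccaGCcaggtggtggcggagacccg
EEF2 exon 12 (chr19:3978139-3978179, minus strand): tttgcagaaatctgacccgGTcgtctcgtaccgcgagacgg
YBX1 exon 4 (chr1:42696220-42696260, plus strand): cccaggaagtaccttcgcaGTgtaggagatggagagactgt
YBX1 exon 5 (chr1:42696757-42696797, plus strand): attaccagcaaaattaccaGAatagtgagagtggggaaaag
YBX1 exon 7 (chr1:42700779-42700819, plus strand): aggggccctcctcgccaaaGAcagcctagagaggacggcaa

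The base before the middle was G in each of these windows except that of LDHA, where it was C. Among all single-site peaks of the 324 whose genes lie on 1 strand, the base before the middle was G in 137 of 190 (72.1%, exact 95% interval 65.2 to 78.4%). It was C in 20, A in 19 and T in 14. At the other 40 places within 20 nt of the middle, G made up 18.9 to 38.4% of the same peaks, with a median of 28.9%, so the excess sat at a single base.

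This base set the peaks apart from the other lists and from the rest of their own list. G stood there in 30 of 76 other peaks of the normal glucose list (39.5%, interval 28.4 to 51.4%), in 33 of 120 peaks found in low glucose alone (27.5%, interval 19.7 to 36.4%) and in 17 of 75 found in galactose alone (22.7%, interval 13.8 to 33.8%). The share was higher among the 324 in each comparison (two-sided Fisher's exact test, adjusted p = 6.29e-06, 3.05e-13 and 2.48e-12). All p-values were adjusted by the Benjamini-Hochberg method over 30 tests, of 10 features in 3 comparisons. RNase T1 cuts after G, but no deposited value measures its cutting, and its part in the difference was not tested.

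**Figure D2:**
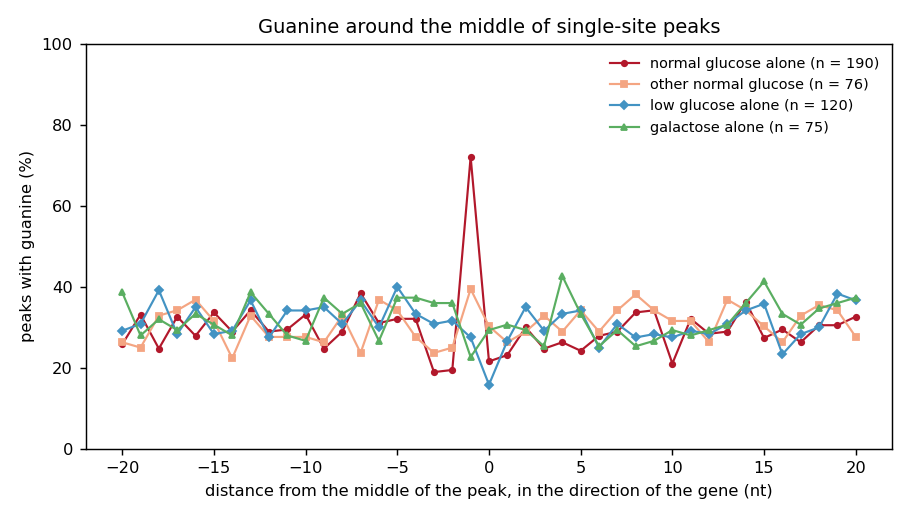
Share of single-site peaks with guanine (vertical axis, %) at each distance from the middle of the peak (horizontal axis, nt, in the direction of the gene), for the 4 sets of peaks. The peaks found in normal glucose alone stand at 72.1% at the base before the middle and between 18.9 and 38.4% at the other 40 places drawn.

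The G was not spread evenly over the kinds of RNA. These splits were chosen after the values had been seen and are given as counts. In coding sequence, 64 of 75 single-site peaks had it (85.3%, interval 75.3 to 92.4%), while the same places held it in 7 of 42 peaks found in low glucose alone (16.7%) and in 7 of 22 found in galactose alone (31.8%). In 5′ untranslated regions (5′UTRs) it stood in 7 of 17 (41.2%), in introns of protein coding genes in 11 of 24 (45.8%), and in 3′UTRs in 6 of 6. The 5′UTR share was 30% in the other normal glucose peaks, 36.4% in low glucose alone and 10% in galactose alone. In introns it was 33.3, 29 and 18.2% in the same order. Genes of small RNA and rRNA had it in 20 of 31 (64.5%), long non-coding RNAs (lncRNAs) in 11 of 17 (64.7%) and pseudogenes in 17 of 18 (94.4%). For small RNA and rRNA the other sets stood at 44.8, 37.5 and 42.9%, in the order above. Of these kinds of RNA, only coding sequence had an interval that overlapped that of no other set. Some of these lncRNA peaks lay in ribosomal DNA units, which are annotated as lncRNA, and several there had the G. Genes on the plus strand had it in 64 of 98 (65.3%) and genes on the minus strand in 73 of 92 (79.3%).

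The base was split further by where else the gene had peaks and by repeated sequence. It was G in 43 of 59 single-site peaks whose gene had a peak elsewhere in another list (72.9%) and in 94 of 131 whose genes had none (71.8%). In sequence that recurs in the genome it was G in 41 of 49 peaks (83.7%, interval 70.3 to 92.7%), and elsewhere in 96 of 141 (68.1%, interval 59.7 to 75.7%), with intervals that overlap.

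By gene class, 180 of the 324 peaks (55.6%, interval 50 to 61%) were annotated to protein coding genes, 80 (24.7%, interval 20.1 to 29.8%) to small RNA or rRNA genes, 40 to lncRNAs and 24 (7.41%, interval 4.8 to 10.8%) to pseudogenes. Each peak got 1 class, and small RNA and rRNA genes took precedence over the gene around them. The 20 peaks in ribosomal DNA units, most of them in 28S or 18S rRNA, are annotated as lncRNA. They counted among the lncRNAs, and the small RNA or rRNA share leaves them out. Protein coding genes held a smaller share than among the peaks found in low glucose alone (78.2%) or in galactose alone (75.7%), with adjusted p = 5.03e-08 and 0.00035 by Fisher's exact test. They held a larger share than among the other normal glucose peaks (40.4%, adjusted p = 0.00211, Fisher's exact test), which dropped to 64.5 against 53.1% (adjusted p = 0.0681) without peaks annotated to several genes and to 48.7 against 41.1% (adjusted p = 0.272) without single-site peaks with the G. With single-site peaks only, the difference from galactose alone was not past the threshold (adjusted p = 0.0719, Fisher's exact test).

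Small RNA and rRNA genes were more frequent than among the peaks found in low glucose alone (10.3%, adjusted p = 2.07e-05) or in galactose alone (9.01%, adjusted p = 0.000627, both by Fisher's exact test). They were less frequent than among the other normal glucose peaks (36.3%, adjusted p = 0.0121, Fisher's exact test), a call that was lost without recurrent peaks (28.5 against 33.6%, adjusted p = 0.387) or without single-site peaks with the G (32.1 against 34.8%, adjusted p = 0.717). With single-site peaks only, the call against galactose alone was lost (adjusted p = 0.0642, Fisher's exact test). Copies of 1 RNA, such as 5S rRNA, counted as separate peaks in these tests. The 24 pseudogene peaks stood against 0 of 171 other normal glucose peaks (upper limit of the interval 2.13%), 2 of 262 in low glucose alone and 1 of 111 in galactose alone. The share was higher among the 324 in each comparison (adjusted p = 8.52e-05, 0.000132 and 0.0117 by two-sided Fisher's exact test). Without single-site peaks with the G before the middle the shares were 3.74% against 0, 0.873 and 1.06%, and the calls against low glucose alone and galactose alone were lost (adjusted p = 0.143 and 0.391, Fisher's exact test). Genes of tRNA, which supplied 46 of the other 171 normal glucose peaks (26.9%), overlapped 11 of the 324 (3.4%, adjusted p = 5.11e-13, Fisher's exact test). In low glucose alone the share was 3.44% (9 of 262) and in galactose alone 5.41% (6 of 111), with adjusted p = 1 and 0.438 by Fisher's exact test.

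**Figure D3:**
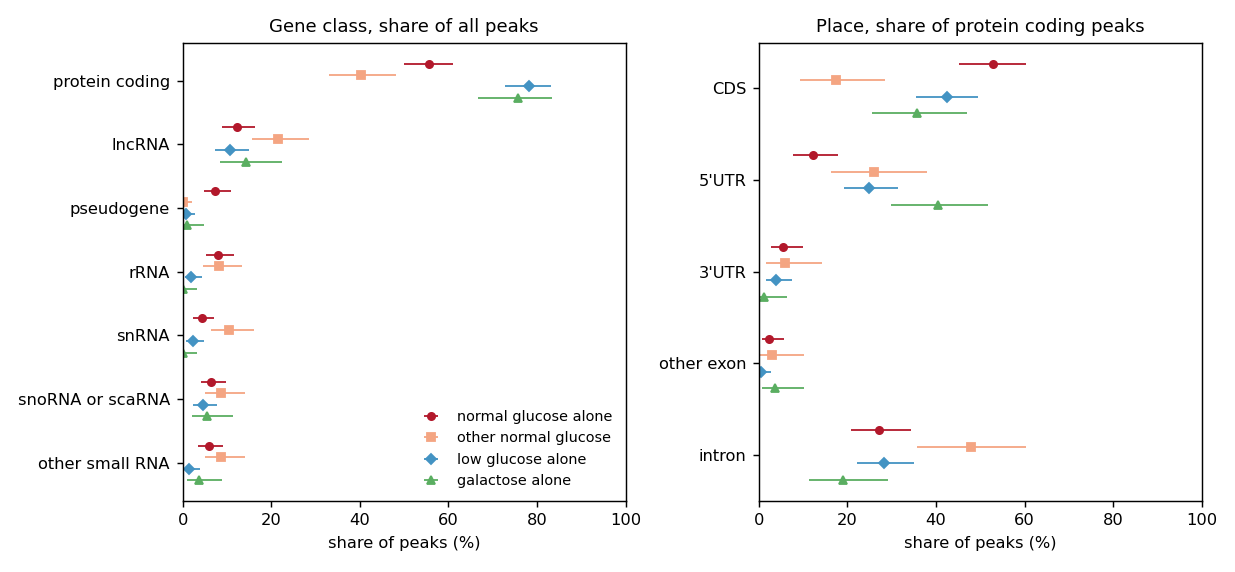
Left, share of all peaks (%, horizontal axis) in each gene class; right, share of protein coding peaks (%) in each part of the transcript, for the 4 sets of peaks. Points are shares and lines exact 95% intervals, and the peaks found in normal glucose alone stand at 52.8% in coding sequence (CDS) and 12.2% in the 5′UTR of the protein coding peaks.

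Within mRNAs the 324 peaks lay mainly in coding sequence. Of the 180 protein coding peaks, 95 had their middle in coding sequence, 22 in a 5′UTR, 10 in a 3′UTR, 4 in another exon and 49 in an intron. Of the 131 exonic ones, coding sequence made up 72.5% (interval 64 to 80%), against 33.3% of 36 other normal glucose peaks, 59.2% of 147 in low glucose alone and 44.1% of 68 in galactose alone (adjusted p = 7.2e-05, 0.03 and 0.000219 by Fisher's exact test). The 5′UTR made up 16.8% (interval 10.8 to 24.3%), against 50, 34.7 and 50% (adjusted p = 0.000219, 0.00162 and 8.14e-06, Fisher's exact test). The difference from low glucose in coding sequence was past the threshold in the full lists but in only 3 of 7 alternatives. It was lost without recurrent peaks (66.7 against 57.2%, adjusted p = 0.185, Fisher's exact test), without peaks annotated to several genes and with single-site peaks only.

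The coding share moved with the G before the middle. The 137 single-site peaks with that G included 78 exonic mRNA peaks, of which 64 (82.1%) lay in coding sequence and 7 in a 5′UTR. The 53 with another base included 22, with 11 (50%) in coding sequence and 10 in a 5′UTR. When single-site peaks with the G were left out of all lists, an alternative chosen after seeing the data, coding sequence made up 58.5% of 53 exonic peaks of the normal glucose set and 61.1% of 131 in low glucose alone (adjusted p = 0.771, Fisher's exact test). Against the other normal glucose peaks and galactose alone the shares were then 58.5 against 34.5% and 39%, with adjusted p = 0.115 and 0.112 by Fisher's exact test. The 5′UTR then made up 28.3%, against 51.7% of the other normal glucose peaks, 32.8% in low glucose alone and 54.2% in galactose alone (adjusted p = 0.112, 0.707 and 0.0195, Fisher's exact test).

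The distance from the start of the spliced transcript was also read. Of 121 peaks with their middle in an exon of the canonical transcript, 11 (9.09%) fell in its first 100 nt, and the median position was 345 nt. The first 100 nt held 11 of 25 other normal glucose peaks (44%, median position 107 nt), 36 of 134 in low glucose alone (26.9%, median 174.5 nt) and 26 of 53 in galactose alone (49.1%, median 101 nt). These positions were compared after the places in the transcript were known, overlap with the 5′UTR shares above, and were not tested.

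**Figure D4:**
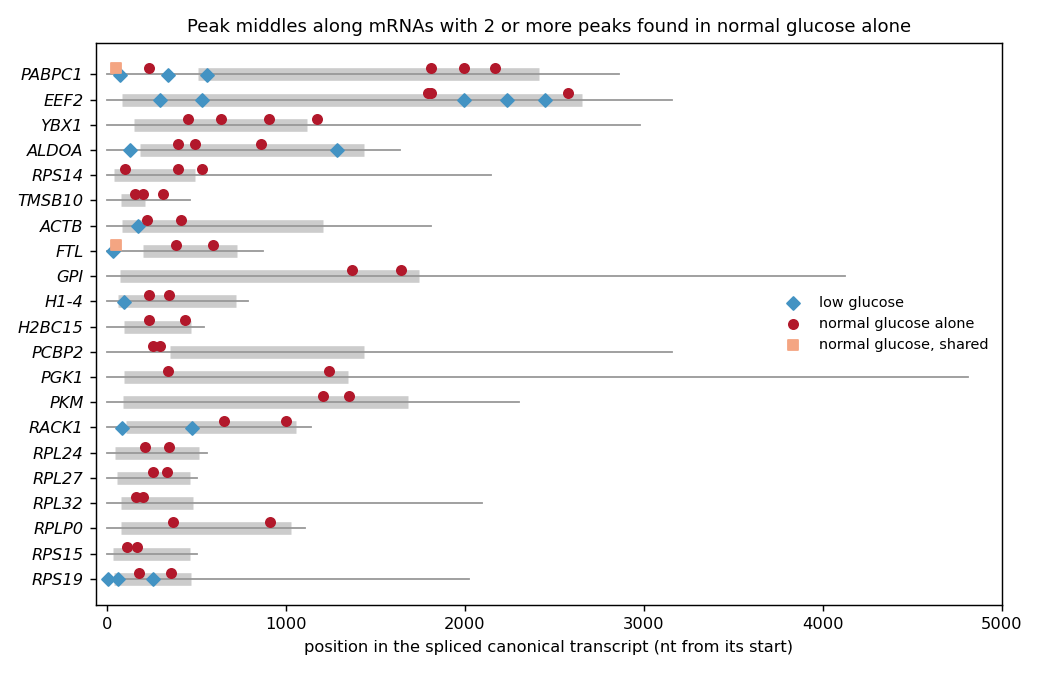
Peak middles along the spliced canonical transcript (horizontal axis, nt from its start) of 21 mRNAs with at least 2 peaks found in normal glucose alone, with coding sequence as a thick grey bar. Red circles are peaks found in normal glucose alone (50 drawn), light squares are other normal glucose peaks and blue diamonds are low glucose peaks; 5 galactose peaks and 6 others with their middle outside the exons of these transcripts are not drawn.

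Enzymes of glycolysis, the pathway to which GAPDH itself belongs, were among the genes bound. All 11 normal glucose peaks on these genes were among the 324, beside 65.5% of the normal glucose list as a whole, and 10 of the 11 lay in coding sequence. They covered 6 genes: ALDOA (aldolase A) with 3 peaks, GPI (glucose-6-phosphate isomerase), PGK1 (phosphoglycerate kinase) and PKM (pyruvate kinase, M type) with 2 each, and LDHA (lactate dehydrogenase A) and GAPDH itself with 1 each. The galactose list had no peak on a gene of the group. The low glucose list had 4, of which 2 lay on ALDOA, 1 on GAPDH and 1 at a place shared by ENO3 and PFN1, and none of them overlapped a normal glucose peak.

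On ALDOA, whose canonical transcript has 10 exons and 1640 nt, the normal glucose peaks had their middles at 394, 492 and 862 nt, in exons 3, 4 and 6. The low glucose peaks lay on either side, at 128 nt in exon 1 and at 1283 nt in exon 9. On GAPDH, the normal glucose peak (chr12:6538122-6538222) lay at 1086 nt of 1285 nt, in the last of 9 exons and in the 3′UTR by the annotation, and the low glucose peak at 407 nt in the coding part of exon 6. An unnamed gene, ENSG00000269968, is annotated at the same place, and 66.7% of the 30-mers of this GAPDH peak occur more than once in the genome.

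GPI, PGK1, PKM and LDHA had a peak in no other list. The middles lay at 1368 and 1641 nt of 4125 nt in GPI, at 338 and 1242 nt of 4812 nt in PGK1, at 1206 and 1353 nt of 2305 nt in PKM and at 261 nt of 2241 nt in LDHA. Of the 7 single-site peaks of the group on 1 strand, 6 had the G before the middle.

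Genes of the translation machinery supplied more peaks than any other group of mRNAs. Ribosomal protein genes held 37 of the 324, out of 59 normal glucose peaks on these genes (62.7%, beside 65.5% for the list), and the peaks lay on 26 genes. They lay in coding sequence for 27, and 26 of 30 single-site peaks had the G before the middle. RPS14, of the small ribosomal subunit, carried 3 peaks, at 101, 398 and 532 nt of its transcript, and had none in the other lists. RPL12 and RPL13A carried 2 each, and 1 of the RPL13A peaks was annotated also to the snoRNA gene SNORD35A. RPS19 also carried 2, at 181 and 357 nt, between and beside low glucose peaks at 4, 62 and 256 nt.

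Translation factors held 12 of the 324 out of 15 normal glucose peaks (80%, beside 65.5% for the list). PABPC1, which binds the poly(A) tail, carried 5, of which 3 lay late in its coding sequence at 1813, 1995 and 2171 nt, 1 in the 5′UTR at 233 nt and 1 in an exon of another transcript. Its low glucose peaks lay nearer to the start, at 70, 341 and 557 nt. EEF2, which moves the ribosome along the mRNA, carried 4, at 1791, 1810 and 2579 nt of 3158 nt and at the first base of an intron. Low glucose peaks on EEF2 lay at 297, 529, 1994, 2234 and 2449 nt and the galactose list had none. EIF4A2, a helicase of initiation, and EIF4G2 carried 1 each, and EIF4A1 held the widest of the 324 peaks, 245 nt over the snoRNA gene SNORD10.

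Peaks were also found on genes of other mRNA-binding proteins and of histones. Of 11 normal glucose peaks on genes of splicing and other mRNA-binding proteins, 10 were among the 324 (90.9%, beside 65.5% for the list), 4 of them on YBX1, which packages mRNA, and 2 on PCBP2, a poly(C)-binding protein. The YBX1 peaks lay at 454, 638, 907 and 1172 nt, the first 3 in coding sequence, and neither of the other lists had a peak on this gene. Histone genes held 16 of the 324 out of 17 normal glucose peaks (94.1%, beside the same 65.5%), on 14 genes and with 14 in coding sequence. H1-4, a linker histone, and H2BC15, an H2B gene, carried 2 each, and 12 of 14 single-site histone peaks had the G.

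Histone genes are alike in sequence, and reads from their copies may be hard to tell apart. The peaks of H2BC10 and H2BC15 show the same 41 bases around the middle, which is why both are printed.
H2BC10 (chr6:26273094-26273134, plus strand): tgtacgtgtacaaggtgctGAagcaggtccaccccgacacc
H2BC15 (chr6:27838780-27838820, plus strand): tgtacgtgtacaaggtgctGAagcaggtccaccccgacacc

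Genes of the cytoskeleton and of protein folding held 17 of the 324 out of 20 normal glucose peaks (85%, beside 65.5% for the list), with HSPA8 (a chaperone) and TMSB10 (thymosin beta-10) at 3 each and ACTB (beta-actin) at 2. The HSPA8 peaks included those annotated also to the snoRNA genes SNORD14C and SNORD14D. FTL, the light chain of ferritin, carried 2 in its coding sequence at 383 and 590 nt, while its other normal glucose peak, in the 5′UTR, was shared with low glucose. Of the genes that the study followed as targets or controls, 7 of 11 normal glucose peaks were among the 324 (63.6%, near the 65.5% of the list): 2 each on ACTB, PKM and RPL13A and 1 on GAPDH. Metallothioneins held 2 (MT1F and MT1H), out of 3 normal glucose peaks, and transcripts with AU-rich elements 3 (CXCL2, MCL1 and ZFP36L1), out of 4. NCL (nucleolin) held 1 of the 2 peaks of its group, PGLS 1 of the 2 peaks of the pentose phosphate pathway, and the myeloid and leukaemia genes 0 of 2. No normal glucose peak lay on the mitochondrial genome or on the respiratory chain genes listed.

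Genes annotated as processed pseudogenes, copies of mRNAs inserted into the genome, were overlapped by 45 of the 324 peaks (13.9%, interval 10.3 to 18.1%), counted in any gene class. Not every such peak lay in mRNA-like sequence: the peak on APOOP5 is also one of the 5S rRNA copies described below. The other normal glucose peaks overlapped 0 of 171 (upper limit 2.13%), the peaks in low glucose alone 5 of 262 (1.91%) and those in galactose alone 1 of 111 (0.901%). This count was chosen after the values had been seen and was not tested. All 22 of the single-site peaks among the 45 with genes on 1 strand had the G before the middle, and 12 of the 45 were recurrent. By their names, some were copies of mRNAs that also held peaks of the set: GAPDHP21, GAPDHP61, GAPDHP63 and GAPDHP65 of GAPDH, ALDOAP2 of ALDOA, PKMP1 of PKM, ACTBP2 of ACTB, RPL24P4 of RPL24 and RPLP0P12 of RPLP0. Others, such as EEF1A1P10, EEF1A1P12, RPS2P17, RPS2P18 and RPL4P4, were copies of mRNAs that held none. All these copies were named after their places were seen. The lists do not say whether the RNA came from the copy or from the parent gene. The windows of 2 copies follow, as examples of the G before the middle in such sequence.
GAPDHP21 (chr10:55667835-55667875, minus strand): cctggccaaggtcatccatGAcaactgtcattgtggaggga
PKMP1 (chr1:114537808-114537848, plus strand): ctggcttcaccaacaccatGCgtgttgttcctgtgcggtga

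A family of copies of 5S rRNA, the small RNA of the large ribosomal subunit, made up 33 of the 324 peaks. They were found by aligning each peak with 100 nt on either side to the 119 nt of RNA5S9, a gene for 5S rRNA, after several had been seen to look alike. An annotated 5S pseudogene with an RNA5SP name was present in 25. Of the other 8, 1 carried an unnamed rRNA pseudogene, ENSG00000285626, at GREB1. The rest lay in genes such as FAM234B, FIG4 and ZNF814 with no such annotation. Identity to RNA5S9 over the aligned bases ran from 81.8 to 98.9%, with a median of 94.3%. The other normal glucose peaks held 11 such places, RNA5S9 itself among them, the peaks in low glucose alone 5 and those in galactose alone 0.

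Where they could be placed, the last sites of these peaks fell within a few bases of each other on 5S rRNA. Some peaks were 1 or a few sites (19 of up to 150 nt) and others were merged stretches (14 over 150 nt, most of them 191 to 193 nt wide). The last site of a peak, 50 nt before its 3′ end, could be placed on 5S rRNA in 30 of 33, and in all 30 it lay between positions 86 and 90. In 28 of the 33 the likeness to 5S rRNA itself ended at or before position 91, and in 4 it ran to position 117 or beyond. A site could be placed only inside the aligned stretch, so in those 28 no position past 91 was possible. At RNA5S9, shared with both other lists, the 3 sites lay at positions 88 to 90. The sequences around the middle of single-site or nearly single-site peaks show the common stretch to the left and unrelated bases to the right.
RNA5SP114 (chr2:188276738-188276778, minus strand): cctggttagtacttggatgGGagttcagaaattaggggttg
RNA5SP215 (chr6:120686690-120686730, plus strand): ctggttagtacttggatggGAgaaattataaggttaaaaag
RNA5SP366 (chr12:99083798-99083838, minus strand): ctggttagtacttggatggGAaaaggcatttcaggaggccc
RNA5SP502 (chrX:41292864-41292904, plus strand): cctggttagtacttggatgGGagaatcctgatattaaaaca
RNA5SP62 (chr1:163468499-163468539, minus strand): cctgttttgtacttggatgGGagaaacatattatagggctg

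**Figure D5:**
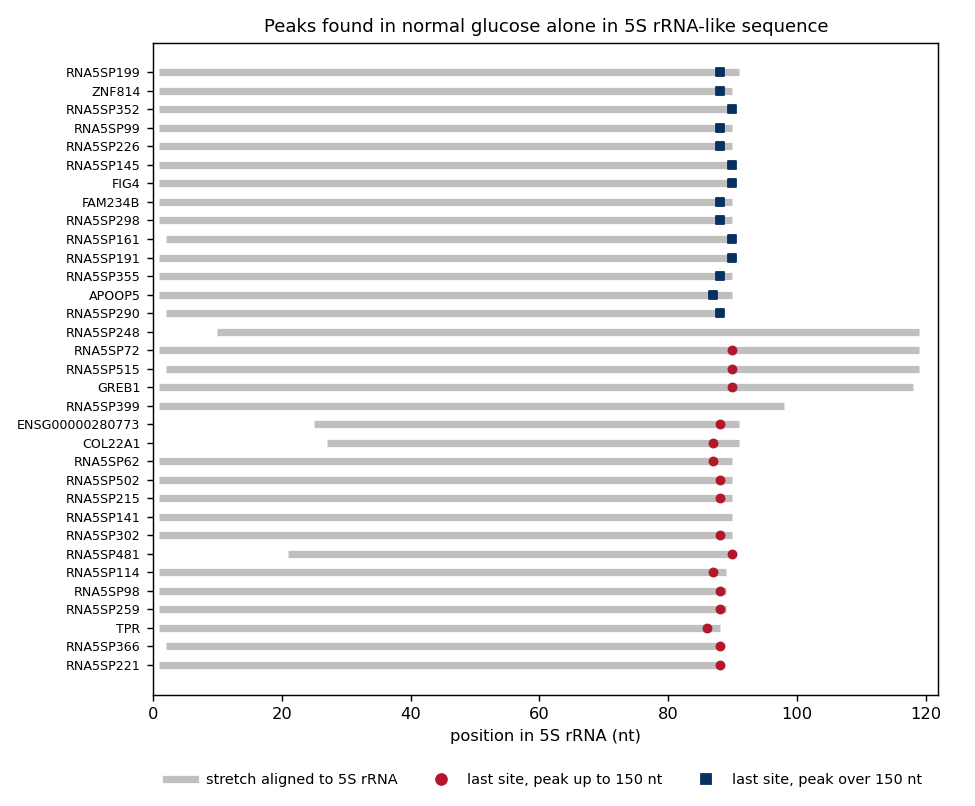
Stretch of each of the 33 peaks with 5S rRNA-like sequence that aligned to 5S rRNA (grey bars; horizontal axis, position in 5S rRNA in nt) and the last site of the peak (red circles for 19 peaks of up to 150 nt, blue squares for 14 over 150 nt, where it could be placed). Rows are named by the RNA5SP pseudogene, or by another gene of the peak where none of that name is annotated. The 30 sites drawn lie between positions 86 and 90.

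Other short RNAs of the set also came as copies. Of 15 normal glucose peaks on 7SK, the RNA that holds a transcription elongation factor inactive, 11 were among the 324 (73.3%, beside 65.5% for the list), on the gene RN7SK and 9 pseudogenes. Aligned to 7SK, the middle lay at position 161 in both RN7SK and 1 of the 2 peaks of RN7SKP255, at 50 or 51 in RN7SKP90 and RN7SKP230 and at 130 in RN7SKP71. It lay at 24 in the other RN7SKP255 peak, 64 in RN7SKP79, 174 in RN7SKP180 and 217 in RN7SKP176. In RN7SKP37 and RN7SKP9 it could not be placed. The peaks with middles at 24, 64 and 174 were wide (153, 233 and 189 nt), so their middle need not be a crosslink site. Their last sites lay at 50, 130 and 218, and the first site of RN7SKP180 lay at 130. These sites lay at or near the middles given for RN7SKP230, RN7SKP71 and RN7SKP176. Another RN7SKP176 peak, shared with low glucose, had its middle at 50. Spliceosomal RNA genes held 13 of 28 normal glucose peaks (46.4%), and snoRNA and scaRNA genes 21 of 36 (58.3%), beside the same 65.5%. U1 variants gave 3 windows in which the middle lay at position 153 of U1. A peak on RNVU1-7 outside the 324, present in every list, also had its middle at position 153.
RN7SK (chr6:52995761-52995801, plus strand): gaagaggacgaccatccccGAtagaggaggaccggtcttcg
RNVU1-1 (chr1:148362361-148362401, minus strand): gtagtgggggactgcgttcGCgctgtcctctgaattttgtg
RNVU1-19 (chr1:120850810-120850850, minus strand): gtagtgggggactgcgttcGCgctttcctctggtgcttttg
RNVU1-27 (chr1:148522734-148522774, plus strand): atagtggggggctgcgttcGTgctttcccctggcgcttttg

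RNAs of the processing enzymes RNase P and RNase MRP, with a vault RNA, gave 5 of 5 normal glucose peaks (65.5% in the list as a whole): 2 on RPPH1, 2 on RMRP and 1 on VTRNA1-1. None of these genes had a peak in another list, and none of their 3 single-site peaks on 1 strand had the G. In contrast, 7SL RNA, the RNA of the signal recognition particle, held 13 normal glucose peaks and 1 of the 324. The group of rRNA genes and pseudogenes gave 25 of 38 (65.8%), near the 65.5% of the list. Among snoRNA genes the G before the middle stood in 3 of 10 single-site peaks. Genes that host snoRNAs held 10 of 12, among them SNHG3 with 3 and DANCR with 2, and nuclear lncRNAs 1 of 5 (on MALAT1).

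The ribosomal DNA units on chromosome 21 held 20 of the 324 (6.17%), of which 12 had their middle in 28S rRNA, 6 in 18S rRNA and 2 in spacers. The units held 10 of the other 171 normal glucose peaks (5.85%, near the share of the 324), 1 found in low glucose alone (0.382%) and 6 found in galactose alone (5.41%). Their lncRNA annotation ENSG00000280441 carried 14 of the 324, the most of any gene, out of 22 normal glucose peaks, and ENSG00000278996 carried 6 out of 8. In the list as a whole, 65.5% of the normal glucose peaks were among the 324. The units are near-identical copies, so which of them a peak came from is uncertain.

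Sequence that recurs in the genome made up 85 of the 324 peaks (26.2%, interval 21.5 to 31.4%), with recurrence set at over 50% of the 30-mers of a peak being found again elsewhere in the genome. This was more than among the peaks found in low glucose alone (8.78%, adjusted p = 1.86e-07, Fisher's exact test) and in galactose alone (16.2%, adjusted p = 0.0476), the latter lost with peaks within 50 nt also counted as shared (adjusted p = 0.105, Fisher's exact test). Against the other normal glucose peaks (23.4%) the adjusted p was 0.552 by Fisher's exact test. Among themselves, 67 of the 324 shared a 30-mer with another member of the set, and the 324 fell into 273 groups without a shared 30-mer. The largest such group, of 22, was that of the 5S copies, followed by 7 copies of U1. Fisher's exact tests above counted such copies as separate peaks. None of the 25 members on rRNA genes and pseudogenes was recurrent by the 50% rule, so leaving out recurrent peaks kept them. No alternative left out the 5S copies as a family.

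In base composition the set was less rich in GC than the other media's own peaks. The median GC content of a window of 101 nt around the middle was 55%, against 63.4% in low glucose alone and 65.3% in galactose alone (two-sided permutation test of the difference of medians, adjusted p = 3e-05 in both, from the smallest p that 100000 permutations give). It was 56.4% in the other normal glucose peaks (adjusted p = 0.163, permutation test). Single-site members with the G before the middle had a median of 53.5% and those with another base 59.4%.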

How the data were processed

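Per the study's methods, MOLM-13 cells were crosslinked with ultraviolet light, GAPDH was precipitated, its RNA trimmed with RNase T1, and PureCLIP sites were merged or extended. Tools given in the submitters' processing notes were cutadapt and STAR (versions not given in the sources used here), with hg38 (GRCh38) as the genome build. The label's library text describes rRNA removal from total RNA, and whether it applies to these libraries is not given in the sources used here. The deposited lists give positions (chromosome, start and end, read as 1-based) and genes per condition, 2 samples joined by the authors, with no counts, scores or strands.

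Strand, class and place came from GENCODE release 44, tRNA genes and 45S units from RefSeq. Of 704 pairs of a normal glucose peak and a gene, 701 were in GENCODE. Shares were compared with two-sided Fisher's exact tests and medians with 100000 permutations (SciPy 1.17.1, Python 3.11.15), Benjamini-Hochberg adjusted, at a threshold of 0.05. Intervals are Clopper-Pearson, at 95%, and cover counting error over peaks only. Copies of 5S, 7SK and U1 RNA were aligned with Biopython 1.88 (local score of at least 35). The overlap rule, Fisher's exact test and the permutation test were tried on simulated data, but the reading of strand and base was not.

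The members, lists and tests were chosen with earlier results of these data known. Named genes were those with 2 or more members, study targets, the leading 3 of each group by members, the 3 widest members and the 3 nearest to another list, with at most 2 without a symbol; names outside this rule were chosen after their values were seen. Alternatives were other overlap, class, transcript and position rules, and lists without recurrent, multi-gene or wider peaks. Without single-site peaks with the G, and without 45S units, were added after seeing the data.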

Additional observations from a re-analysis of the deposited data

How the results depend on the processing

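No paired analysis was possible because each deposited list joins both samples of its condition, and no sample was left out in turn for the same reason. Depth is unknown, so how far the reading of each library sets the length of its list was not tested.

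The number of normal glucose peaks found alone was 324, and ran from 224 (genes without a peak anywhere in another list) to 335 (overlap of at least 0.5 of the shorter peak needed) over 5 alternatives. For the features, 30 differences between shares (in percentage points) or median GC contents were recomputed, and 165 of the 200 recomputed values, the counts of peaks included, kept their direction and their side of the threshold. Every alternative run kept the excess of G before the middle in the 3 comparisons. With starts counted from 0 the middle base of a 101 nt peak stays the same, so that run could not differ.

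The values that turned direction or changed their side of the threshold follow, as peaks found in normal glucose alone minus the set named. With peaks within 50 nt counted as shared, recurrent sequence against galactose alone gave 8.74 (adjusted p = 0.105, Fisher's exact test). Without recurrent peaks, small RNA or rRNA against other normal glucose peaks gave -5.14, and against low glucose alone the exonic share gave -0.159 and coding sequence 9.42. Without peaks annotated to several genes, protein coding and small RNA or rRNA against other normal glucose peaks gave 11.4 and -6.43, and recurrent sequence 12, now past the threshold. The same setting gave, against low glucose alone, 1.02 for tRNA genes and 12.1 for coding sequence, and against galactose alone 2.84 for the exonic share.

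With single-site peaks only, protein coding, small RNA or rRNA and recurrent sequence against galactose alone gave -11.8, 9.65 and 6.29. Recurrent sequence and the exonic share against other normal glucose peaks gave -2.92 and 9.28, and coding sequence against low glucose alone 12. Canonical transcripts gave 1.67 for the exonic share against galactose alone. The middle inside a tRNA gene gave 1.09 against low glucose alone and 0.0501 against galactose alone, and the deposited peak gave 0.0865 for GC content against other normal glucose peaks.

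Without single-site peaks with the G, differences from other normal glucose peaks were 7.53 (protein coding), -2.67 (small RNA or rRNA), 8.24 (exonic), 24 (coding sequence) and -23.4 (5′UTR), none past the threshold. From low glucose alone they were 2.87 (pseudogenes), 1.76 (tRNA genes), -14.5 (exonic, turned and past the threshold), -2.58 (coding sequence, turned) and -4.52 (5′UTR), and from galactose alone 2.68 (pseudogenes), 7.57 (recurrent), -22.6 (exonic, now past the threshold) and 19.5 (coding sequence). Without 45S units, tRNA genes against low glucose alone gave 0.17. Apart from fewer peaks being tested, the cause of these changes was not tested.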
